A study of Mus musculus with 6 samples.

Results

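Livers of young mice were compared for 8 non-coding RNAs, grouped here as nuclear or structural RNAs: Malat1, Neat1, Rmrp, Rpph1, Rn7sk, Gas5, Snhg1 and Snhg12. They were chosen by gene symbol and not by their values, as non-coding RNAs kept in libraries made by depleting ribosomal RNA. Of the 8, 7 were rows of the table of 24411 gene symbols, and Rn7sk, the scaffold of the 7SK particle that holds back the elongation factor P-TEFb, was not analysed here. The libraries were made from liver total RNA taken at postnatal day 19 from p62+/+ mice (n = 3) and p62S351E/+ mice (n = 3) and read as 75-bp single ends. The p62S351E/+ mouse carries 1 allele of Sqstm1, the gene encoding the autophagy adaptor p62, with Glu in place of Ser351, a change that mimics phosphorylation. The allele was made by prime editing in an embryonic stem cell line, and the mice descend by in vitro fertilization from the sperm of 1 low-contribution chimera, and they grew poorly. The study asked which genes differ between these genotypes.

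These RNAs do different jobs. Malat1 collects in nuclear speckles, which store splicing factors, and Neat1 is the scaffold of paraspeckles. Rpph1 is the catalytic RNA of RNase P, which cuts the 5′ end of transfer RNA precursors, and Rmrp is the RNA of the related RNase MRP, which cuts precursor ribosomal RNA. RNase P also cuts the 3′ end of Malat1 and frees a small transfer RNA-like molecule called mascRNA. Gas5, Snhg1 and Snhg12 are host genes: their introns carry small nucleolar RNAs (snoRNAs), which guide chemical modification of ribosomal RNA, and their spliced transcripts are mostly degraded by nonsense-mediated decay.

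Sequences of the RNAs that carry the results are shown first, in DNA letters on the transcript strand, from GENCODE transcripts of GRCm38, the build of mm10. The 2 enzyme RNAs are short and rich in G and C, with 64.2% in the 271-base transcript of Rmrp and 67.1% in the 319-base transcript of Rpph1. Capitals mark matches to GNAANNTC, the first letters of a stretch conserved in RNase P RNAs. It was found at position 67 of Rmrp and at positions 7 and 60 of Rpph1. It was searched on the transcript strand only and matches 21.7% of 132371 transcripts in their first 271 bases, so a match is a description. The longest run shared by both RNAs was 9 bases.
Rmrp: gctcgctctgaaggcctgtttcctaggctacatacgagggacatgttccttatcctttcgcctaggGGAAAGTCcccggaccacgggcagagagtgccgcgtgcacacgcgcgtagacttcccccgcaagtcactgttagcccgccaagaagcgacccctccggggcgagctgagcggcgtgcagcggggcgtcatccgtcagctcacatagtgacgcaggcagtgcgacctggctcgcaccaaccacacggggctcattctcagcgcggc
Rpph1, first 300 bases: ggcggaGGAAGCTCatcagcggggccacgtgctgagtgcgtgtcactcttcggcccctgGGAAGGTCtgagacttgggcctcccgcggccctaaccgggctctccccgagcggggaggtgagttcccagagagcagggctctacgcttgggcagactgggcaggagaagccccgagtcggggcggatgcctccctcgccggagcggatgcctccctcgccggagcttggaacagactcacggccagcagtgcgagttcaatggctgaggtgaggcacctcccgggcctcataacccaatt

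The 3′ part of Malat1, from base 6592 to base 6749 of 6983, is shown because it holds the RNase P product: the capitals are the 58 bases that RefSeq annotates as mascRNA on chromosome 19 (chr19:5795924-5795981, GRCm38.p6).
Malat1, bases 6592 to 6749: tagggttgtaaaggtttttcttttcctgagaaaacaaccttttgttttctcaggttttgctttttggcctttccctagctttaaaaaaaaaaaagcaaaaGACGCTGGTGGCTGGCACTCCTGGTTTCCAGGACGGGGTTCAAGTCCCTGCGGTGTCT

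Snord22, a snoRNA inside Snhg1, is shown because it held more counts than its host in every library. Capitals mark its last CTGA, the letters of box D, which lie within the last 20 bases of 35.4% of 1507 annotated snoRNA transcripts (transcript strand only).
Snord22: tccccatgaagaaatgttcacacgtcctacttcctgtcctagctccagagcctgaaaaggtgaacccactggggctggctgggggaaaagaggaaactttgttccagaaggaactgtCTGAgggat

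Total estimated counts per library lay between 8696712 and 10341622, but Rn45s (the ribosomal RNA precursor), Lars2 and Mir6236 took nearly all of them. Outside these 3 genes, p62+/+ mice 1 to 3 had 297320, 299487 and 271473 counts, against 134911, 231631 and 315436 for p62S351E/+ mice 1 to 3. The share of each RNA was therefore taken of the counts outside the 3 genes, with exact Clopper-Pearson 95% intervals that cover counting error only. Hepatocyte markers were present in all libraries, with Alb at 5728 to 16390 normalized counts. Of 15 neuronal and glial markers, the counts added up to 2520 to 2863 per p62+/+ library, to 46 and 51 in libraries 1 and 2 of p62S351E/+, and to 2680 in library 3. Of these markers 6 and 7 had any count in p62S351E/+ mice 1 and 2, and Snap25, Stmn2, Gad1, Camk2a, Gfap and Tubb3 were at 0 in both. Aqp4 of the same list was not: it made up 27 of the 46 counts of mouse 1, where its 51.4 normalized counts were near the 46.5 to 48.1 of the p62+/+ libraries. Xist, the RNA of the inactive X chromosome, was at most 1 count in the same 2 libraries, and neither a sex nor a batch was given. In bulk tissue, fewer cells of a type and less RNA per cell cannot be told apart.

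Malat1, Neat1, Rmrp and Rpph1 together made up most of the counts of the group. On the TMM scale (trimmed mean of M-values, edgeR's correction for composition) each had a higher normalized count in every p62S351E/+ library than in any p62+/+ library, as did 12.0% of the 5945 genes tested. With total counts as the only scaling, Malat1 was instead lower and the other 3 were closer to equal. Of the 8 RNAs, 5 passed the filter on low counts, the fifth being Gas5. None of these 5 passed edgeR's quasi-likelihood test (thresholds: adjusted p of 0.05 and absolute log2 fold change of 1), against 0.925% of all genes tested. At an unadjusted p below 0.05 there were 3, against 14.6% of all genes tested. DESeq2 called 0 of them (3.75% of all genes with an adjusted p), and limma-voom called 1, Neat1 (2.41% of all genes).

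Rpph1 and Rmrp, the RNAs of the sister enzymes, were considered first. Rpph1 lies on the minus strand of chromosome 14 (chr14:50807447-50807771) as a single 325-base RNase P RNA gene. Its share was 0.506%, 0.578% and 0.522% of the counts in p62+/+ mice 1, 2 and 3, and 1.25%, 0.854% and 0.742% in p62S351E/+ mice 1, 2 and 3. All 3 p62S351E/+ libraries lay above all 3 p62+/+ libraries, and the intervals of the nearest pair, from 0.552% to 0.606% and from 0.712% to 0.773%, did not meet. The group means were 0.535% ± 0.038 and 0.948% ± 0.266 (SD, n = 3 each), a ratio of 1.77 with an exact two-sided permutation p of 0.1, the smallest that 3 mice against 3 allow. In normalized counts Rpph1 had 1258 ± 74.96 in p62+/+ and 2504 ± 697 in p62S351E/+ mice. The log2 fold change was 0.99 (SE, the standard error, 0.26; adjusted p = 0.139 by edgeR's quasi-likelihood test).

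Rmrp lies on the minus strand of chromosome 4 (chr4:43492785-43493059) as a single 275-base RNase MRP RNA gene. It held 0.189%, 0.181% and 0.196% of the counts in the p62+/+ mice and 0.441%, 0.266% and 0.311% in p62S351E/+ mice 1, 2 and 3. The p62+/+ libraries were close to each other, and every p62S351E/+ library was above them. The group means were 0.189% ± 0.00768 and 0.339% ± 0.091 (SD, n = 3 each), a ratio of 1.80 (exact permutation p = 0.1). Its normalized counts were 443.8 ± 20.6 and 889.4 ± 211, a log2 fold change of 1.002 (SE 0.23, adjusted p = 0.111, edgeR). The counts of Rpph1 and Rmrp were whole numbers in every library.

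Both enzyme RNAs ranged together across the libraries. The ratio of Rpph1 to Rmrp counts within a library, which does not depend on scaling, was 2.68, 3.20 and 2.66 in the p62+/+ mice and 2.83, 3.21 and 2.39 in the p62S351E/+ mice, and the groups overlapped. Pearson's r of their log2 CPM was 0.96 over the 6 libraries. These differ in genotype, depth and composition, and r does not separate such differences from a link between the 2 RNAs. By limma-voom with all 6 libraries, the adjusted p was 0.0221 for Rmrp (log2 fold change 0.98) and 0.0353 for Rpph1 (0.96), short of the fold change threshold. Without p62S351E/+ mouse 3, whose neuronal and glial marker counts were near those of the p62+/+ libraries, both passed by edgeR, in a fit that called 5.21% of all genes higher and 15.3% lower: Rpph1 had a log2 fold change of 1.18 (adjusted p = 0.00108, edgeR) and Rmrp 1.11 (adjusted p = 0.0027, edgeR). With p62S351E/+ mouse 3 as the only p62S351E/+ library, assumed to vary like the p62+/+ libraries, Rmrp had a log2 fold change of 0.79 (adjusted p = 0.006, edgeR) and Rpph1 0.54 (adjusted p = 0.0708, edgeR). The size for Rpph1 was thus smaller in this library. What part the marker difference has in these values was not tested.

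Malat1 lies on the minus strand of chromosome 19 (chr19:5795690-5802672), a 6983-base long non-coding RNA gene with 1 RefSeq gene, mascRNA, inside it. It took the largest share of the 7 in every library: 2.33%, 2.18% and 1.95% in the p62+/+ mice and 3.19%, 2.33% and 2.29% in p62S351E/+ mice 1, 2 and 3. Mouse 1 of the p62S351E/+ group stood above the rest, and the other 2 were at the level of p62+/+ mouse 1, so the shares overlapped. The means were 2.15% ± 0.189 and 2.60% ± 0.511 (SD, n = 3 each), a ratio of 1.21 (exact permutation p = 0.2). The normalized counts did not overlap, at 5552, 5056 and 4574 against 8200, 6791 and 5591. The log2 fold change of 0.44 (SE 0.24) did not pass the test (adjusted p = 0.423, edgeR), and with total counts as the only scaling it was -0.30. In p62S351E/+ mouse 3 alone against the p62+/+ mice it was 0.16 (SE 0.14, adjusted p = 0.824, edgeR).

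Neat1 lies on the same strand of chromosome 19 (chr19:5824708-5845480). Its gene of 20773 bases gives a long and a short isoform that share their 5′ end, and the gene counts do not separate them. The p62+/+ libraries held 0.488%, 0.391% and 0.248% and the p62S351E/+ libraries 0.682%, 0.607% and 0.662%. All 3 p62S351E/+ libraries were close to each other and above the p62+/+ libraries, which differed more among themselves. The means were 0.376% ± 0.121 and 0.650% ± 0.0387 (SD, n = 3 each), a ratio of 1.73 (exact permutation p = 0.1). The log2 fold change was 0.95 (SE 0.28, adjusted p = 0.194, edgeR). By limma-voom it was 1.01 and passed (adjusted p = 0.0346), and without p62S351E/+ mouse 3 it was 0.99 with an adjusted p of 0.0157 (edgeR), short of the fold change threshold. In p62S351E/+ mouse 3 alone it was 0.88, with a SE of 0.47.

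**Figure D1:**
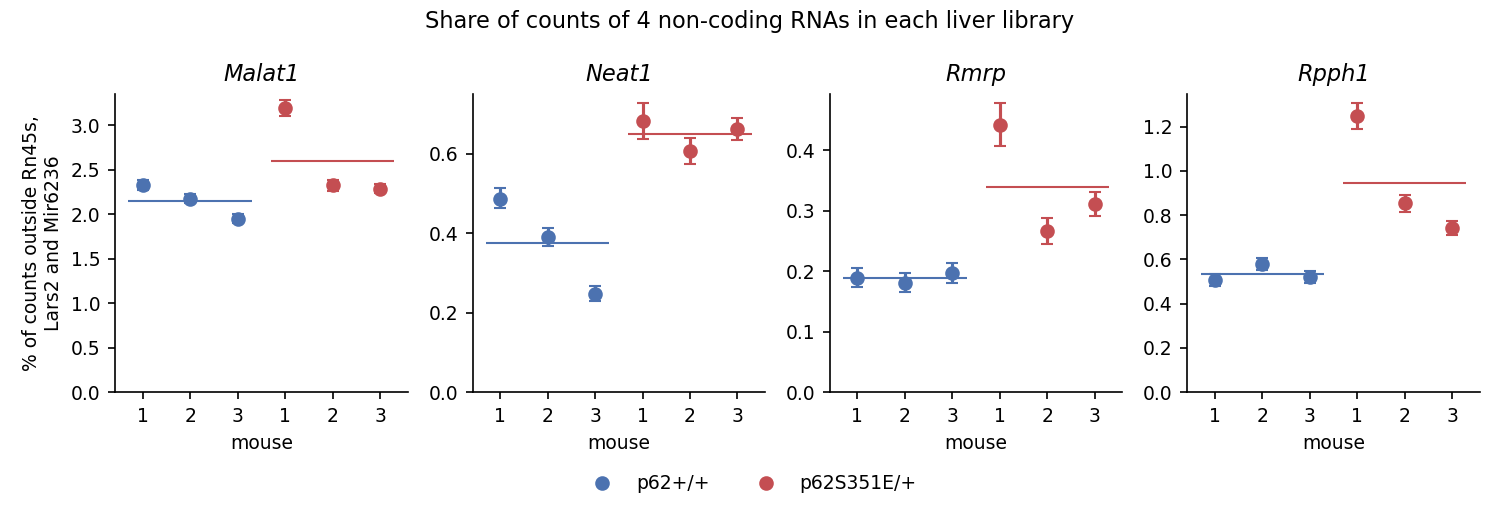
Percent of counts, leaving out Rn45s, Lars2 and Mir6236, held by Malat1, Neat1, Rmrp and Rpph1 in each of the 3 p62+/+ (blue) and 3 p62S351E/+ (red) libraries, with exact 95% intervals of counting error as bars and group means as lines. Neat1, Rmrp and Rpph1 are higher in every p62S351E/+ library, while the Malat1 shares overlap; as shares of all counts, the groups overlap for all 4.

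The 2 long RNAs of speckles and paraspeckles were compared within each library. Malat1 had 4.77, 5.56 and 7.87 times the counts of Neat1 in p62+/+ mice 1, 2 and 3, and 4.68, 3.83 and 3.46 times in p62S351E/+ mice 1, 2 and 3. Every p62S351E/+ value was lower than every p62+/+ value, but the closest were nearly equal. The mean log2 ratio was 2.57 ± 0.37 and 1.99 ± 0.22 (SD, n = 3 each), a difference of -0.58 with the smallest exact permutation p that the design allows, 0.1. Without p62+/+ mouse 3, the library with the least Neat1, the difference was -0.38.

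Per length the order of the levels was different from that of the counts. In counts per kilobase of the gene per 1000000 counts outside the 3 genes, Rpph1 was highest in p62+/+ livers (16470 ± 1169), followed by Rmrp (6861 ± 279), Malat1 (3080 ± 271) and Neat1 (181 ± 58.1, SD, n = 3 each). In p62S351E/+ livers the order was unchanged, with 29170 ± 8183, 12340 ± 3308, 3726 ± 732 and 313 ± 18.6. No neighbours in this order overlapped between libraries within a genotype. The Neat1 value uses the length of the long isoform. Reads of 75 bases start at fewer positions in an RNA of about 300 bases than its length, and the library preparation selects fragments by size, so these levels are approximate.

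Taking all counts as the denominator removed most of the differences. Per 1000000 of all counts, Rpph1 had 167.3, 174.0 and 162.8 in the p62+/+ mice and 162.8, 192.2 and 231.6 in the p62S351E/+ mice. Rmrp had 62.4, 54.5 and 61.3 against 57.5, 59.9 and 96.9. For both, the p62S351E/+ libraries 1 and 2 were at or near the p62+/+ level and library 3 was above it, the reverse of the order in normalized counts. Neat1 had 161.1, 117.7 and 77.4 against 89.0, 136.7 and 206.5. Malat1 had 768.8, 654.4 and 609.0 against 416.4, 524.0 and 713.9, so that its p62S351E/+ mean was 0.814 of the p62+/+ mean. None of the 4 separated the genotypes (exact permutation p from 0.3 to 0.6).

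The fits showed the same dependence. With total counts as the only scaling, the log2 fold changes of Rmrp, Rpph1 and Neat1 were 0.27, 0.22 and 0.28, but the median over all genes tested was then -0.68, against -0.03 with TMM. Relative to that median, Rmrp, Rpph1, Neat1 and Malat1 were at 0.95, 0.90, 0.96 and 0.38. With the counts outside the 3 genes as library size the median was -0.19, and relative to it the 4 were at 1.03, 1.01, 0.98 and 0.46. With TMM the values relative to the median were 1.03, 1.02, 0.98 and 0.47. By construction, these relative values change little with a scaling, which moves every gene about equally. Over all alternatives they ran from 0.53 to 1.22 for Rpph1, from 0.75 to 1.15 for Rmrp and from 0.71 to 1.23 for Neat1.

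**Figure D2:**
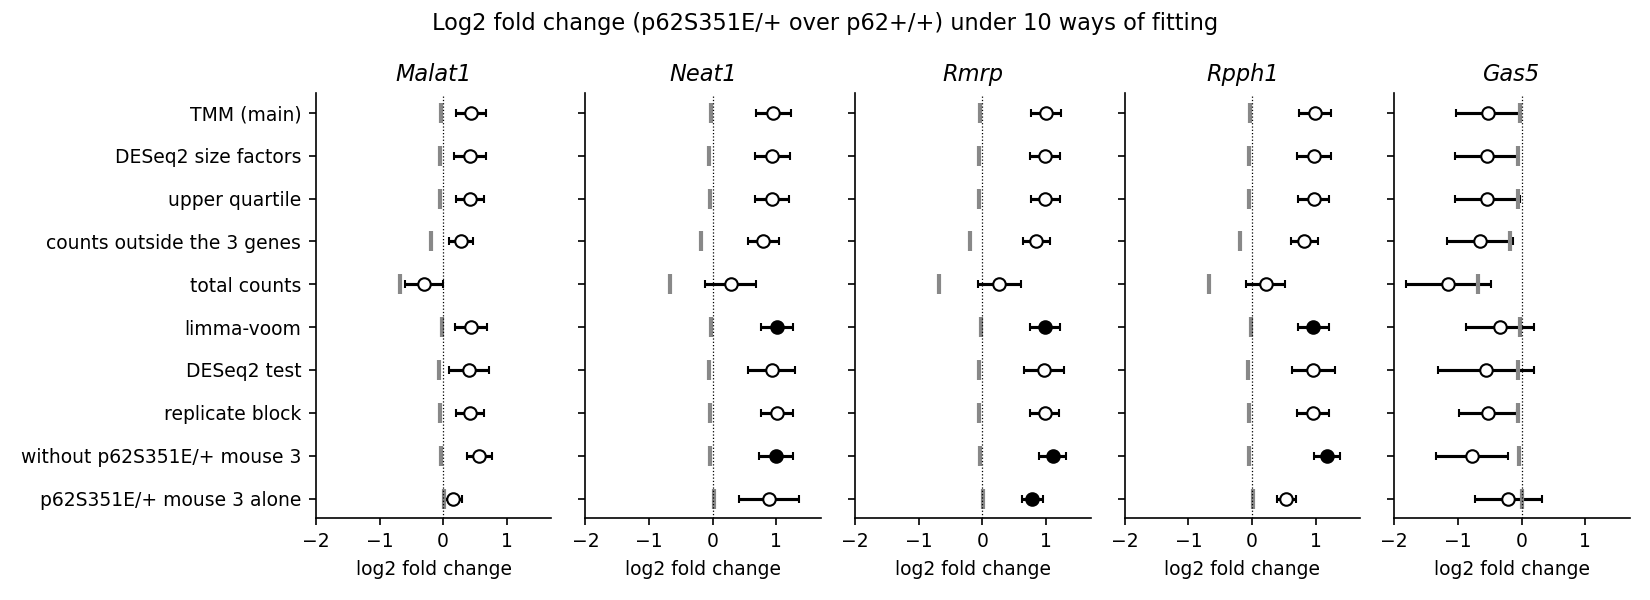
Log2 fold change (p62S351E/+ over p62+/+) of the 5 RNAs tested, with standard errors (SE), under 10 ways of fitting; filled points have an adjusted p below 0.05 and grey ticks mark the median over all genes tested. Rmrp, Rpph1 and Neat1 stay to the right of the median throughout, and Malat1 falls below 0 with total counts, where it is -0.30 and the median is -0.68.

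The 3 snoRNA host genes were scarce. Gas5, on the plus strand of chromosome 1 (chr1:161034601-161038539), had 19, 8 and 13 counts per p62+/+ library and 5, 3 and 12 per p62S351E/+ library, and the groups overlapped. Its normalized counts were 10.9 ± 4.53 and 7.53 ± 3.25 (SD, n = 3 each), and the log2 fold change was -0.53 (SE 0.50, adjusted p = 0.616, edgeR). It overlaps Zbtb37 on the opposite strand, and since the strand used in counting is not given in the sources used here, reads in the overlap cannot be told apart. Zbtb37 had 7 counts or fewer in each library.

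Snhg1 (chr19:8723487-8726326, plus strand) had 1, 3 and 0 counts per p62+/+ library and 0, 0 and 1 per p62S351E/+ library. Snhg12 (chr4:132308678-132311024, plus strand) had 4, 2 and 5 against 0, 1 and 2. Neither passed the filter. A count of 0, with 3 counts taken as the upper limit, allows a share of up to 0.00222% in p62S351E/+ mouse 1, and the p62+/+ shares of Snhg12, from 0.000668% to 0.00184%, lie below that limit. All 3 p62S351E/+ shares of Snhg12 lay below the p62+/+ shares, but p62+/+ mouse 2 and p62S351E/+ mouse 3 both had 2 counts. Its difference was not detectable at this depth. In normalized counts, 14.7% of the genes tested, which leave out Snhg12, were below in every p62S351E/+ library.

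The snoRNAs inside these hosts were counted separately where the table had them. RefSeq places 8 snoRNAs in Gas5, 8 in Snhg1 and 4 in Snhg12, of which 1, 1 and 4 matched a row by symbol. Snord22, printed above, lies inside Snhg1 at chr19:8725866-8725991 and had 19, 15 and 32 counts per p62+/+ library and 6, 10 and 21 per p62S351E/+ library, so it exceeded Snhg1 itself in every library. Snora44, inside Snhg12, had 1, 4 and 3 against 3, 1 and 5 counts. Snord47, inside Gas5, had 1 count in p62S351E/+ mouse 3 and none elsewhere, and Snora16a, Snora61 and Snord99 were at 0 in all 6 libraries. Of 119 rows named as snoRNAs or small Cajal body RNAs, 15 had 10 or more counts over the 6 libraries, and all of them together summed to 81 to 181 counts per library.

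**Figure D3:**
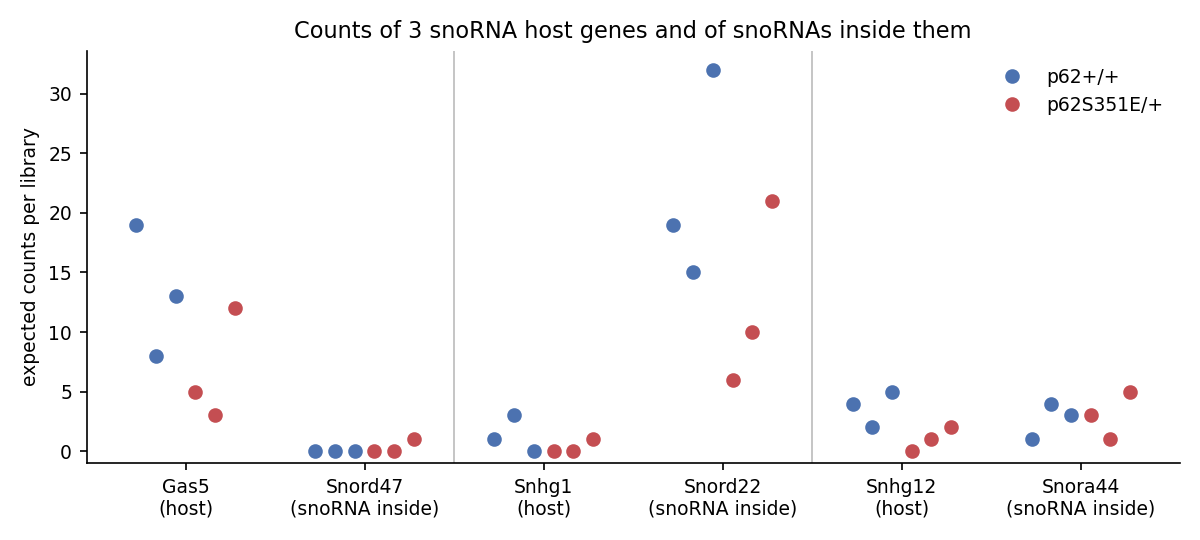
Estimated counts per library of the host genes Gas5, Snhg1 and Snhg12 and of a snoRNA inside each, in p62+/+ (blue) and p62S351E/+ (red) livers in the order of mice 1 to 3. Snord22, with 6 to 32 counts, lies above its host Snhg1, with 0 to 3.

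The other genes of these pathways were read from lists of related genes. For each list the number of genes tested, those called by edgeR and the median log2 fold change are given beside the median over all genes of -0.03. In every list with tested genes, 0 were called in either direction with all 6 libraries, against 0.925% of all genes tested. Beside the counts below, 14.6% of all genes tested had an unadjusted p below 0.05 by edgeR. DESeq2 called 3.75% of all genes with an adjusted p, and limma-voom 2.41% of all genes.

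Among 33 other snoRNA host genes, 32 had a row and 14 were tested, with a median of 0.22 and 2 at an unadjusted p below 0.05, as for 14.6% of all genes. DESeq2 and limma-voom called 0. The most abundant were Hspa8, a chaperone gene (log2 fold change 0.29, adjusted p = 0.554), Snhg11 (-1.16, adjusted p = 0.441) and Eif4a2, a translation initiation factor gene (-0.42, adjusted p = 0.432). Snhg11 is also one of the neuronal markers, with 191.0, 172.3 and 184.8 normalized counts in the p62+/+ libraries and 26.7, 49.1 and 166.6 in the p62S351E/+ libraries, lowest in the 2 libraries with few neuronal and glial transcripts. The non-coding hosts other than Snhg11 had 8 counts or fewer in each library.

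Of 41 other small structural RNAs, 21 had a row and 4 were tested, with a median of -0.20 and 0 at an unadjusted p below 0.05 (DESeq2 and limma-voom 0). Rn4.5s had a log2 fold change of -0.75 (adjusted p = 0.421, edgeR) and Scarna13 of -0.28 (adjusted p = 0.787, edgeR). For Rnu12, an RNA of the minor spliceosome, it was -0.12 (adjusted p = 0.934, edgeR). The RNase P RNA-like rows Rprl1, Rprl2 and Rprl3 were listed at 0 in all 6 libraries. Among the short RNAs of the list with a row, the highest, Rn4.5s, had at most 40 counts. Others, among them Rn7s1, Rn7s2, Rny1 and Rnu1a1, had no row, so they could not be compared with Rpph1 and Rmrp.

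The 12 tested genes of the list of other long nuclear RNAs (26 listed, 24 with a row) had a median of -0.63, with 1 at an unadjusted p below 0.05. DESeq2 called 1, and limma-voom 0. Xist had 56.8, 1168 and 924.7 normalized counts in the p62+/+ mice and 1.90, 0 and 1191 in the p62S351E/+ mice. Meg3, an imprinted RNA, had 395.8, 356.3 and 388.8 against 0, 6.30 and 305.2. Both were at or near 0 in the 2 libraries with few neuronal and glial transcripts, unlike Malat1 and Neat1. Xist was also low in p62+/+ mouse 1, at 56.8, where these markers summed to 2735 counts, and no sex was given. Kcnq1ot1, which silences imprinted neighbours, had a log2 fold change of 0.09 (adjusted p = 0.874). H19, an imprinted RNA of fetal liver chosen here after its values were seen, had 5.62, 10.1 and 7.77 against 312.3, 54.2 and 50.4 normalized counts (log2 fold change 4.11, adjusted p = 0.138, edgeR). Without p62S351E/+ mouse 3, 1 gene of this list was called higher and 6 lower, in the fit that called 5.21% of all genes higher and 15.3% lower.

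The protein partners lay on both sides of 0. Of the paraspeckle protein genes, 18 of 22 were tested, with a median of 0.04 and 1 at an unadjusted p below 0.05 (Hnrnpr, -0.67), and of the nuclear speckle protein genes all 21, with a median of 0.13 and 1 such gene (Srsf7, 0.76). Both were named after their values were seen and did not pass the test. Sfpq, a paraspeckle core protein gene, had a log2 fold change of 0.10 (adjusted p = 0.824), Hnrnpk of 0.09 (adjusted p = 0.862) and Ewsr1 of 0.02 (adjusted p = 0.978). Srrm2, Son and Srsf5 of the speckles had log2 fold changes of 0.33, 0.19 and 0.32 (adjusted p = 0.449, 0.666 and 0.539). The normalized counts of Srrm2, a scaffold of speckles, did not overlap, at 320.2, 285.7 and 286.7 against 359.9, 374.2 and 387.3. In the speckle list 4 of the 21 genes were above in this way, as were 12.0% of all genes tested. DESeq2 and limma-voom called 0 in both lists.

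The RNase P and RNase MRP protein genes were too low to test. Of 12 listed, 11 had a row and 0 passed the filter, and together they had 27, 28 and 32 counts per p62+/+ library and 10, 23 and 25 per p62S351E/+ library. Pop1, the largest protein of both enzymes, had 2 to 8 counts. The RNAs of the enzymes were thus measured at depths of 533 to 2341 counts per library, and their proteins at a few.

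The 7SK and P-TEFb list, with 12 of 16 tested, had a median of -0.15 and 1 gene at an unadjusted p below 0.05. Hnrnpa2b1, Aff4 and Srsf2 had log2 fold changes of -0.18, -0.20 and 0.20 (adjusted p = 0.698, 0.716 and 0.729). Among the nonsense-mediated decay factors, 11 of 17 were tested, with a median of -0.11 and 1 such gene. Smg1, the kinase of this pathway, and Upf1, its helicase, had log2 fold changes of 0.47 and 0.55 (adjusted p = 0.321 and 0.358), and Smg6 of -0.11 (adjusted p = 0.872). Of the genes of RNA polymerase III, the enzyme that transcribes Rmrp and Rpph1, 9 of 36 were tested, with a median of -0.25 and 0 at an unadjusted p below 0.05. Gtf3c1, Gtf3c2 and Bdp1 had log2 fold changes of -0.16, 0.21 and -0.28 (adjusted p = 0.734, 0.758 and 0.638). DESeq2 and limma-voom called 0 in these 3 lists. In the RNase P and RNase MRP list 0 genes passed the filter, so edgeR and limma-voom could call none. DESeq2 also called 0 there, at counts too low for this to be a result.

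**Figure D4:**
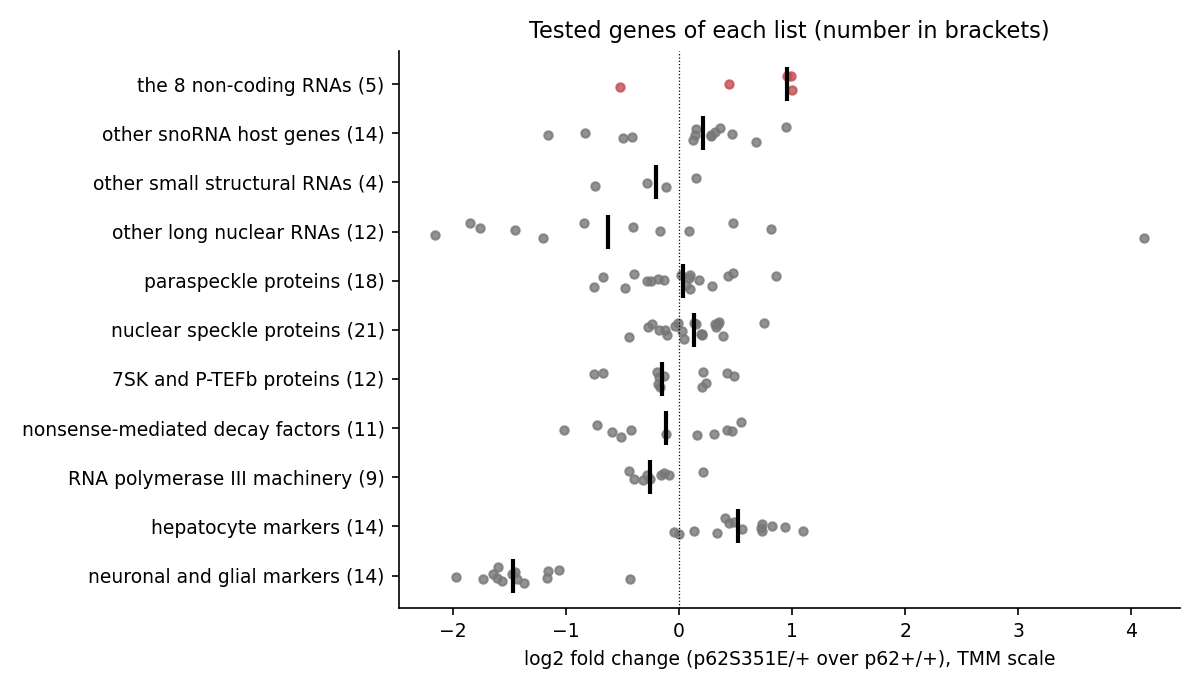
Log2 fold change (p62S351E/+ over p62+/+, TMM scale) of each tested gene in the lists, with black ticks at list medians and the 8 non-coding RNAs in red. Neuronal and glial markers have a median of -1.46 and hepatocyte markers of 0.52; on the total-count scale the median over all genes is -0.68.

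Hepatocyte markers, taken as a sum, were also higher in p62S351E/+ mice 1 and 2. Their summed share of the counts outside the 3 genes was 7.30%, 6.82% and 6.97% in the p62+/+ mice and 9.37%, 12.6% and 7.29% in p62S351E/+ mice 1, 2 and 3. Of the 14 tested, 13 had a log2 fold change above 0, against 48.0% of all genes tested. The median of the 14 was 0.52. Apob, the apolipoprotein B gene, had a log2 fold change of 1.10 (adjusted p = 0.121, edgeR), of the size seen for Rmrp and Rpph1, Alb of 0.83 (adjusted p = 0.32) and Ahsg, the fetuin-A gene, of 0.56 (adjusted p = 0.414). Not all markers went this way: Apoa1, Ttr and Serpina1c, named after their values were seen, were lower in p62S351E/+ mouse 1 than in any p62+/+ mouse. The highest hepatocyte share was in mouse 2, while the highest Rpph1, Rmrp and Malat1 shares were in mouse 1. Of 9 stellate and stromal markers, 5 were tested, with a median of -1.62. Of these, 3 had an unadjusted p below 0.05, as did 14.6% of all genes tested. The collagen genes Col3a1 and Col1a2, named after their values were seen, had log2 fold changes of -1.94 (adjusted p = 0.0513, edgeR) and -2.27 (adjusted p = 0.109, edgeR). Both were lower in every p62S351E/+ library than in any p62+/+ library, as were 14.7% of all genes tested. edgeR called 0 genes of this list. DESeq2 and limma-voom called 1 lower each, against 3.75% and 2.41% of all genes called in either direction. The part of these marker differences in the values of the non-coding RNAs was not tested.

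The genes whose pattern over the 6 libraries was most like Malat1 and Rpph1 were read from Pearson's r of log2 CPM. This is a description, since the libraries differ in genotype, depth and composition, which can move many genes together. For Malat1 these were Oaf (r = 0.993), Slc6a12 (r = 0.991) and Utrn (r = 0.989). For Rpph1 they were Cldn1, a tight junction gene (r = 0.994), Cyp2c29, a cytochrome P450 gene (r = 0.991), and Faah (r = 0.989). All 6 were highest in p62S351E/+ mouse 1, then mouse 2, then mouse 3. Between the RNAs themselves r was 0.94 for Malat1 and Rpph1, 0.89 for Malat1 and Rmrp and 0.84 for Malat1 and Neat1, and it was below 0 for Gas5 with each of the others.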

How the data were processed

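Liver RNA was depleted of ribosomal RNA and sequenced by the authors, who trimmed reads with Trim Galore, mapped them to mm10 with STAR, and deposited expected counts estimated by RSEM, without normalization. Versions and the gene annotation are not given in the sources used here. Samples were grouped by their labels.

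Expected counts were rounded and tested with edgeR 4.0.16 (R 4.3.3) by the quasi-likelihood test with TMM factors and filterByExpr at a minimum count of 10; the Benjamini-Hochberg adjustment covered all 5945 genes tested. Standard errors were taken as the size of the log2 fold change over the square root of F. Shares used SciPy 1.17.1. DESeq2 1.42.0, limma 3.58.1 and other scalings, filters and subsets were alternatives. Scripts were tested on simulated data. The members and lists were chosen with earlier results of these data known. Named genes were all members, the called genes of each pathway list or otherwise its 3 most abundant (also for hepatocyte markers), and the 3 genes most correlated with Malat1 and Rpph1. Positions are from RefSeq GRCm38.p6. Replicate numbers did not pair the mice. Log2 CPM of each gene, less the mean of its genotype, correlated at 0.076, -0.091 and -0.001 between same-numbered mice.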

Additional observations from a re-analysis of the deposited data

How the results depend on the processing

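Of the 8 RNAs, 0 were called with edgeR under each alternative that kept all 6 libraries. limma-voom called 1, and leaving out single mice gave 0 to 2, the 2 being Rmrp and Rpph1 without p62S351E/+ mouse 3. Malat1 reversed to a log2 fold change of -0.30 with total counts. The log2 ratios of mean shares were -0.30, 0.28, 0.27 and 0.22 for Malat1, Neat1, Rmrp and Rpph1 with all counts as the denominator. Over all genes, 50 were higher and 5 lower. The numbers higher and lower were 131 and 12 with limma-voom, 12 and 2 with total counts, 79 and 10 with no filter, 18 and 1 with the replicate block, and 18 and 1 at an adjusted p below 0.01. The lower genes alone moved to 11 with DESeq2, 8 with the legacy method, 29 with at least 10 counts in every library and 23 with p62S351E/+ mouse 3 as the only p62S351E/+ library. Leaving out single mice gave 16 to 333 higher and 1 to 975 lower genes, the most without p62S351E/+ mouse 3, and the difference in the Malat1 to Neat1 log2 ratio ran from -0.74 to -0.38. The cause of these changes was not tested. The mice shared only a replicate number, and the block left 0 of the 8 RNAs called. Low depth limits Gas5, Snhg1, Snhg12 and the protein partners of the enzyme RNAs.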
